A study of Mus musculus with 31 samples.

Results

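Hippocampal RNA of rAAV-OVA mice at 28 days was compared with that of rAAV-OVA mice at 8 days, using 8 of the 31 bulk RNA-seq libraries of the series. The mice were chosen by their labels alone, treatment rAAV-hSyn-OVA-mCherry with time point 28d or 8d, which gave 4 mice at each time. The 8-day mice D700, D701, D702 and D703 belong to batch 1 of the labels, which do not say what a batch was. The 28-day mice D661 and D667 belong to batch 1, and D845 and D844 to batch 2. All mice were adult OT-I/RAG1-/- animals, which make no B cells and whose CD8 T cells carry a single receptor, specific for a peptide of chicken ovalbumin (OVA). Both groups received the same vector in the dorsal CA1 region of both hemispheres, where the human synapsin promoter (hSyn) drives OVA and the red marker mCherry in neurons. The left hippocampus was sequenced. The control vector (rAAV-control, mCherry without OVA) was given to 3 mice of 8 days, all of batch 1, and to 4 mice of 28 days, 2 of each batch.

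In this model CD8 T cells meet their antigen on neurons. As background, activated CD8 T cells kill with granzymes and release interferon-gamma, which raises MHC, chemokine and guanylate-binding protein genes in microglia, astrocytes and endothelium. Ly6C-positive monocytes can follow chemokines such as Ccl2 into the tissue and become macrophages that express Chil3 or Nos2. T cells may later stay in tissue as resident memory cells, and microglia can take on a disease-associated state with Apoe and Spp1. The comparison of 28 with 8 days asks which parts of the acute response were still present at the later time. In bulk tissue, fewer cells of a type and less RNA per cell cannot be told apart.

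Levels are given in CPM, the counts of a gene scaled to a library of 1000000, after trimmed-mean normalization (TMM), and differences as Log2FC with the standard error (SE), positive where the level was higher at 28 days. Differentially expressed genes (DEGs) are those with FDR ≤ 0.05 and |Log2FC| ≥ 0.66 in edgeR's quasi-likelihood test, fitted to all 31 mice with 2 surrogate variables. The 8 libraries held between 19046977 and 32112818 counts.

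Both batch 2 mice of 28 days stood apart. D844 was a weak responder: its summed T cell receptor list reached 48.9 CPM, against 896, 408 and 948 CPM in D661, D667 and D845 and against 6.27 to 55.7 CPM in the 7 rAAV-control mice of 8 and 28 days. The same library held 2063 CPM over 10 striatal neuron genes, where the other 7 rAAV-OVA mice held 97.2 to 180 CPM. D845 held 8306 CPM over 12 choroid plexus genes and 2033 CPM over 12 genes of meninges and fibroblasts, where the other 7 mice held 148 to 818 CPM and 358 to 833 CPM. Over 16 genes of ciliated ependymal cells, which line the ventricle next to the hippocampus, D844 held 295 CPM and D845 182 CPM, against 70.3 and 51.1 CPM in D661 and D667 and 13.1 to 33.6 CPM at 8 days. In rAAV-control mice the choroid plexus list spanned 228 to 2512 CPM at 8 days and 287 to 6568 CPM at 28 days, and the highest library of each batch at 28 days lay at 6568 CPM (D851, batch 2) and 5893 CPM (D706, batch 1). The striatal and ependymal lists were chosen after values were seen. Among the rAAV-control mice of 8 days, D720 stood apart with 1880 CPM over the MHC class II list, against 63.5 and 151 CPM in the other 2. Lists for B cells and plasma cells and for NK cells and neutrophils had 3 of 8 and 2 of 11 members among the genes tested.

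**Figure D1:**
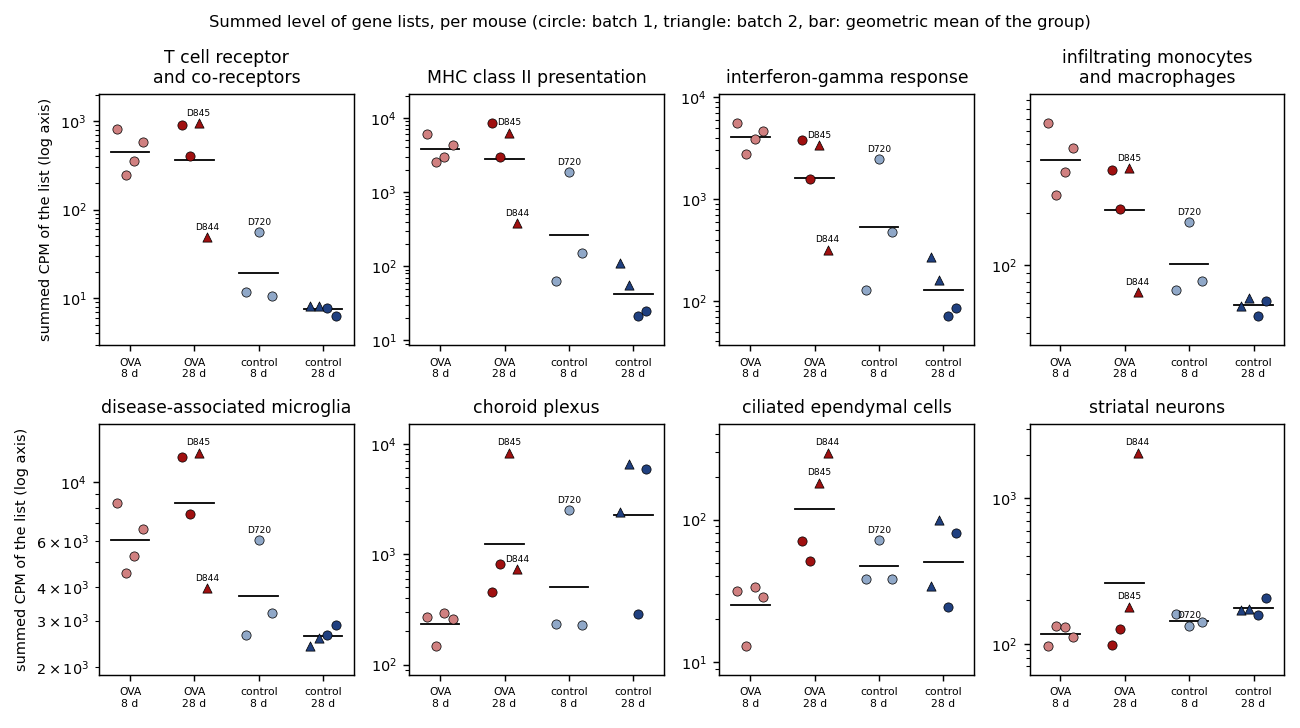
Summed CPM of 8 gene lists (log axis) for each mouse in 4 groups, rAAV-OVA and rAAV-control at 8 and 28 days, with circles for batch 1, triangles for batch 2 and a bar at the geometric mean. T cell receptor and MHC class II levels of D661, D667 and D845 lie inside or above the 8-day range, while D844 lies at 48.9 and 384 CPM, and D845 and D844 carry the highest choroid plexus (8306 CPM) and striatal (2063 CPM) values.

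Across 15648 genes, 448 were DEGs (2.86% of those tested), of which 370 rose (2.36%) and 78 fell (0.498%) from 8 to 28 days. All 4 mice of 28 days lay above all 4 of 8 days for 487 genes (3.11%) and below them for 360 (2.3%), 847 in all (5.41%). Among the DEGs the groups did not overlap for 215 of the 370 that rose and for 37 of the 78 that fell. The median Log2FC of all genes was -0.02. The highest value of the 28-day group was in D844 or D845 for 344 of the 370 genes that rose, and the mean of these 2 mice was over 2 times that of D661 and D667 for 210 of them. Of the 78 genes that fell, D844 held the lowest 28-day value for 59.

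The number of DEGs moved when single libraries were left out. The surrogate variables were estimated anew in each such fit, so a lost library and changed covariates cannot be told apart. The number was 0 without D845 (0%), 77 without D844 (0.492%), 757 without D661 and 1144 without D667. On the 8-day side it was 139 without D700, 25 without D701, 169 without D702 and 123 without D703. With the batch label in place of the surrogate variables, 22 genes were DEGs (0.141%), and these 22 were among the 448. With the batch label and 2 surrogate variables together 0 genes were DEGs in edgeR (678 at an unadjusted p below 0.05), and with only the 8 mice fitted, without covariates, 0 (1393). Fitted to the batch 1 mice alone, with D661 and D667 for 28 days, 1 gene was a DEG (0.00639%), Spp1. This smaller comparison shares its mice with the fit that chose the DEGs, so the same signs were largely built in. In it 363 of the 370 genes that rose and 78 of the 78 that fell had a Log2FC of the same sign, and 186 and 44 were still past 0.66. The median Log2FC of the genes that rose went from 1.31 to 0.67, and of those that fell from -1.06 to -0.73. Both batch 1 mice lay beyond all 4 mice of 8 days for 244 of the 370 genes that rose and 39 of the 78 that fell, against 833 and 921 genes of the whole table (5.32% and 5.89%). The DEGs were called from a fit that holds these same mice, which raises their share, so the counts are no independent support.

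**Figure D2:**
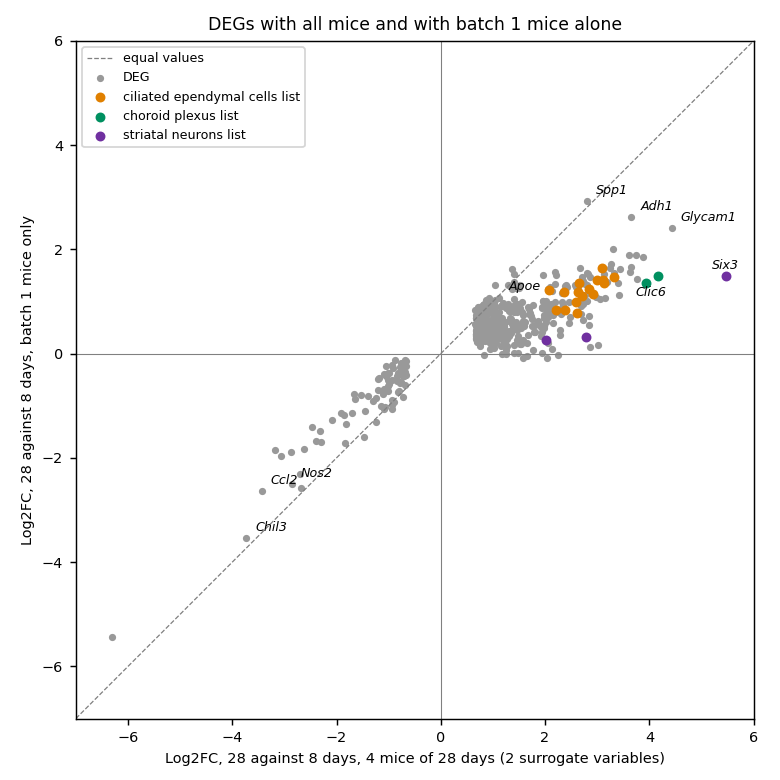
Log2FC at 28 against 8 days for the 448 DEGs, from the model with all mice (x axis) and from batch 1 mice alone (y axis), with list members coloured and the dashed line at equal values. Chil3, Spp1 and Apoe lie near the line, whereas Six3 moves from 5.48 to 1.48 and Clic6 from 4.16 to 1.49.

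Genes of infiltrating monocytes and macrophages were among the largest decreases. Chil3 (ENSMUSG00000040809), a chitinase-like protein of macrophages, stood at 8.02, 1.58, 8.27 and 9.94 CPM in D700, D701, D702 and D703 and at 0.875, 0.317, 0.96 and 0.172 CPM in D661, D667, D845 and D844. Every 28-day mouse was below every 8-day mouse, and Log2FC was -3.74 ± 0.50 (SE, edgeR FDR = 0.00168). Chil3 was 1 of the 4 genes that fell with the batch label as covariate (edgeR FDR = 0.04), and in batch 1 alone its Log2FC was -3.54 (edgeR FDR = 0.365).

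Ly6c2, a surface marker of inflammatory monocytes whose reads can be shared with its close copy Ly6c1, was measured at 134, 30.4, 69.8 and 82.2 CPM at 8 days and at 29.7, 10.96, 18.4 and 0.31 CPM at 28 days (Log2FC -3.06 ± 0.61, edgeR FDR = 0.0106). D661, D667 and D845 kept levels above the rAAV-control mice of 28 days, 0.281 to 0.412 CPM, and D844 lay within that range. Ly6c2 passed without D844 (Log2FC -2.93, edgeR FDR = 0.0356) but not with the batch label (-2.29, edgeR FDR = 0.211). In batch 1 alone, where it did not pass, its Log2FC was -1.97. Plac8, another monocyte gene, went from 27.9 to 86.8 CPM at 8 days down to 0.552 to 26.4 CPM (Log2FC -2.48 ± 0.55, edgeR FDR = 0.0171). In all, 4 of the 15 monocyte and macrophage genes fell, against 0.498% of all genes, and none rose. Without D844 3 of the 15 fell, and with the batch label 2. The list had a median Log2FC of -0.79, of -0.40 in batch 1 alone and of -1.62 in rAAV-control mice, whose 8-day group included D720. Not every member moved: Ccr2, the receptor for Ccl2, was at 9.62 to 18.6 CPM at 8 days and at 21.1, 10.8, 23.9 and 1.138 CPM in D661, D667, D845 and D844 (Log2FC -0.24 ± 0.53, edgeR FDR = 0.843).

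Nos2 (ENSMUSG00000020826), the inducible nitric oxide synthase, stood at 60.5, 16.6, 30.8 and 39.3 CPM at 8 days and at 7.87, 5.14, 8.22 and 1.17 CPM at 28 days (Log2FC -2.86 ± 0.47, edgeR FDR = 0.00485). With the batch label its Log2FC was -2.55 (edgeR FDR = 0.0521), and without D844 -2.65 (edgeR FDR = 0.0198). Il1b, the inflammatory cytokine, went from 8.15, 3.83, 7.71 and 14.8 CPM to 2.38, 1.13, 2.09 and 0.069 CPM (Log2FC -2.69 ± 0.70, edgeR FDR = 0.0318). Without D844 (Log2FC -2.62, edgeR FDR = 0.109) and with the batch label (-1.89, edgeR FDR = 0.223) it did not pass. It was the 1 DEG among 23 genes of the NF-kB pathway, where 0.498% of all genes fell, and the list had a median Log2FC of -0.14. Coagulation factor gene F10 (Log2FC -3.18 ± 0.85) and AA467197 (-2.88 ± 0.56) were also among the 10 largest decreases with separate groups, at edgeR FDR values of 0.0385 and 0.0104. With the batch label neither passed (Log2FC -2.01 and -2.01, edgeR FDR = 0.383 and 0.243). Without D844 F10 did not pass (-2.82, edgeR FDR = 0.204), whereas AA467197 did (-3.01, edgeR FDR = 0.0258). Ptx3, a pentraxin counted among reactive astrocyte genes, was the 1 DEG of that list of 20 (Log2FC -2.32 ± 0.62, edgeR FDR = 0.0347), and 0 passed without D844 (Ptx3 Log2FC -1.91) or with the batch label (-1.83).

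Of 18 measured chemokine and receptor genes 2 fell, against 0.498% of all genes. These were Ccl2 and Ccl7, which attract monocytes. Ccl2 was at 28.4, 13.3, 24.1 and 28.0 CPM at 8 days and at 4.48, 3.06, 5.24 and 0.207 CPM at 28 days (Log2FC -3.44 ± 0.76, edgeR FDR = 0.0171). Ccl7, its neighbour in the chemokine family, had 6.12 to 10.2 CPM and then 2.13, 0.81, 4.25 and 0.241 CPM (Log2FC -2.68 ± 0.71, edgeR FDR = 0.033). For both genes the groups were separate, and D844 was the lowest. The list had a median Log2FC of -0.75, and of -1.70 in rAAV-control mice, whose 8-day group included D720. Other ligands of the list did not pass, among them Ccl8 (Log2FC 0.14, edgeR FDR = 0.918) and Ccl12 (Log2FC -0.89, edgeR FDR = 0.468). Without D844 neither passed (edgeR FDR = 0.0722 for Ccl2 and 0.0851 for Ccl7), with nearly the same or larger Log2FC of -3.49 and -3.16. Ccl5, a product of T cells, had 46.4 to 154 CPM at 8 days and 135, 43.2, 68.4 and 3.69 CPM at 28 days and overlapped (Log2FC -1.03 ± 0.73, edgeR FDR = 0.436).

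**Figure D3:**
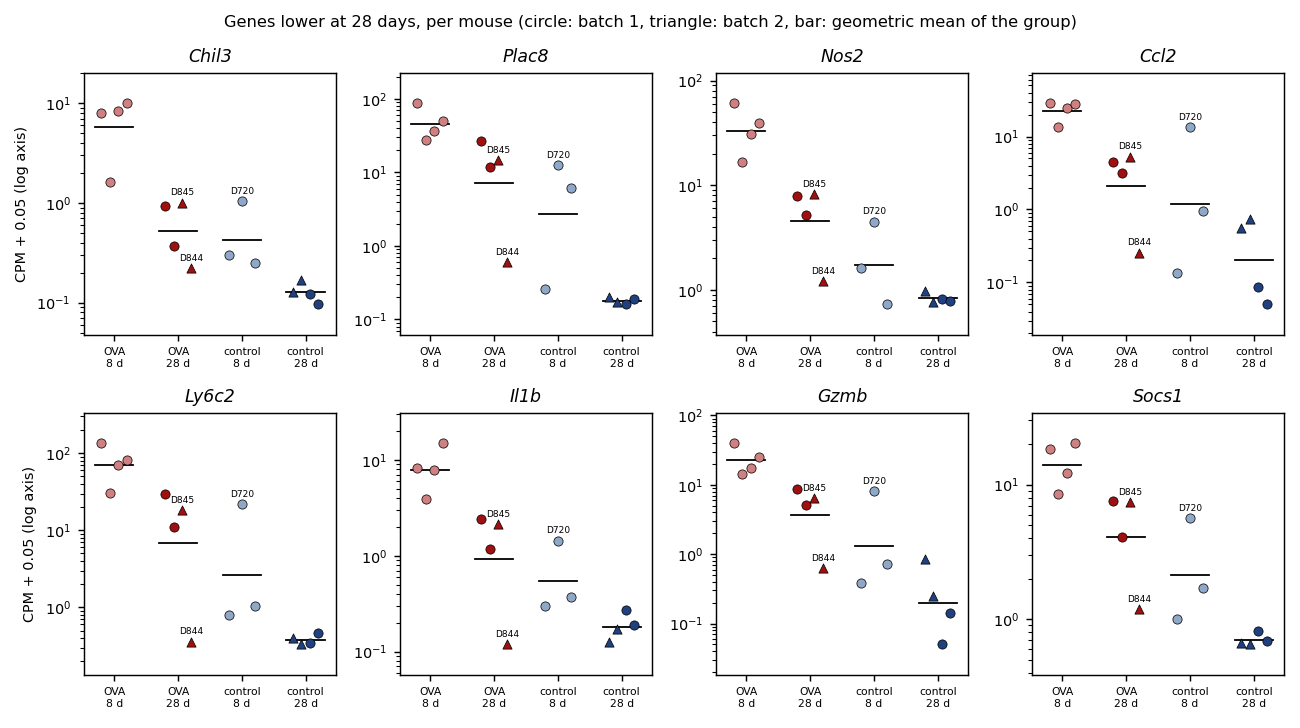
CPM plus 0.05 (log axis) of 8 genes that were DEGs with a lower level at 28 days, for each mouse of 4 groups, with circles for batch 1, triangles for batch 2 and a bar at the geometric mean. Every rAAV-OVA mouse of 28 days lies below every one of 8 days, D844 is the lowest of these in each panel, and the raised control mouse D720 is labelled.

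The T cell genes that were measured did not pass. Cd8a, the co-receptor of cytotoxic T cells, was at 163, 52.0, 77.6 and 135 CPM at 8 days and at 168, 79.1 and 171 CPM in D661, D667 and D845 and 6.28 CPM in D844 (Log2FC -0.48 ± 0.46, edgeR FDR = 0.581). Trbc2, a constant segment of the T cell receptor beta chain with the near-identical copy Trbc1, was at 106 to 360 CPM and then at 445, 193, 482 and 25.6 CPM (Log2FC 0.20 ± 0.47, edgeR FDR = 0.849). In 3 of 4 mice of 28 days these levels fell inside or above the 8-day range, and in rAAV-control mice Trbc2 ran from 0.732 to 23.5 CPM. The T cell receptor list had 10 of 23 members among the genes tested, and Cd3e, Cd3g and Trac were not among them. Of the 10 measured genes 0 were DEGs, with a median Log2FC of -0.16, and 0.21 in batch 1 alone. Itgae, the integrin CD103 of tissue-resident T cells, read 31.8, 8.79, 15.3 and 19.6 CPM at 8 days and 50.2, 18.2, 45.8 and 1.76 CPM at 28 days (Log2FC 0.32 ± 0.44, edgeR FDR = 0.727). None of 12 homing and residency genes and none of 8 checkpoint genes was a DEG, with medians of 0.17 and -0.31.

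The granzymes did fall. Gzmb, granzyme B, was at 39.6, 14.5, 17.4 and 25.5 CPM at 8 days and at 8.57, 5.04, 6.41 and 0.586 CPM at 28 days (Log2FC -2.62 ± 0.61, edgeR FDR = 0.0212). The groups did not overlap, though in batch 1 alone (Log2FC -1.84, edgeR FDR = 1) and without D844 (Log2FC -2.59, edgeR FDR = 0.083) the gene did not pass, the latter at nearly the same Log2FC. Gzma, granzyme A, fell less, from 15.2, 3.66, 6.95 and 8.1 CPM to 5.07, 2.64, 3.98 and 0.448 CPM with overlapping groups (Log2FC -1.70 ± 0.48, edgeR FDR = 0.0434). These were the 2 DEGs of the 8 measured cytotoxic effector genes, against 0.498% of all genes that fell. The list names 18 genes, and Prf1 and Ifng were not among those tested. Without D844 0 of the 8 were DEGs (list median -1.23), and with the batch label 0 (-0.75). The list had a median Log2FC of -1.25 with all mice, -0.51 in batch 1 alone and -1.63 in rAAV-control mice. Of the rAAV-control mice of 8 days, D720 held 58.0 CPM over the list, against 12.9 CPM in D696 and 15.2 CPM in D722.

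Of 23 measured interferon-gamma response genes 2 fell, against 0.498% of all genes, 1 without D844 (list median -1.26) and 0 with the batch label (-1.11). The 23 measured members had Log2FC below 0 in 23 of 23, with a median of -1.41, and 0 of 23 were above 0 in batch 1 alone (median -0.74). Socs1, a feedback inhibitor of cytokine signalling, was at 18.3, 8.41, 12.1 and 20.2 CPM at 8 days and at 7.56, 4.02, 7.33 and 1.138 CPM at 28 days (Log2FC -1.82 ± 0.41, edgeR FDR = 0.0191), and Nos2 was the other. Cxcl10, a chemokine for activated T cells, was at 143, 64.7, 96.9 and 122 CPM and then at 35.2, 21.1, 64.2 and 2.24 CPM, with every 28-day mouse below every 8-day mouse, and missed the threshold (Log2FC -2.38 ± 0.75, edgeR FDR = 0.0691). Gbp2 and Irf1 had Log2FC of -1.82 ± 0.66 and -1.33 ± 0.46 (edgeR FDR = 0.107 and 0.0889). The 21 type I interferon genes were likewise below 0 in 21 of 21, with a median of -0.87 and 0 DEGs. The medians in rAAV-control mice, -1.19 and -1.28, were also below 0, and in these the 8-day group included D720.

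Because both interferon lists leaned one way together, the 250 bases before the transcription start of their members were read from RefSeq (build GRCm38.p6). Of the 23 interferon-gamma genes, 14 had a window. The core of the interferon-stimulated response element, GAAA followed after any 2 bases (NN) by another GAAA, on either strand, stood in 11 of these 14 genes (78.6%), against 936 of 27025 genes with a window (3.46%), and in 8 of 15 type I interferon genes (53.3%). The gamma-activated sequence TTCNNNGAA, which reads alike on both strands, stood in 8 of the 14 (57.1%), against 8.13% of all genes, and in 3 of 15 type I genes (20%). These counts describe the letters of the windows. Shown are Cxcl10, with separate groups, Socs1, which passed, and Gbp2 and Irf1, with values above. Capitals mark a match to either motif, and in Socs1 they span 2 overlapping matches to the first one. The windows are chr5:92348890-92349139 on the minus strand for Cxcl10, chr16:10785537-10785786 on the minus strand for Socs1, chr3:142620413-142620662 on the plus strand for Gbp2 and chr11:53769764-53770013 on the plus strand for the first window of Irf1.
Cxcl10: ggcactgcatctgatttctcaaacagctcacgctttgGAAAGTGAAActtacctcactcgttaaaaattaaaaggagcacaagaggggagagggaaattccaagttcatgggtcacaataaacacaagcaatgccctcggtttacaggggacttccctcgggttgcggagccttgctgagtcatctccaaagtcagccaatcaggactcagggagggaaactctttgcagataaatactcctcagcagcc
Socs1: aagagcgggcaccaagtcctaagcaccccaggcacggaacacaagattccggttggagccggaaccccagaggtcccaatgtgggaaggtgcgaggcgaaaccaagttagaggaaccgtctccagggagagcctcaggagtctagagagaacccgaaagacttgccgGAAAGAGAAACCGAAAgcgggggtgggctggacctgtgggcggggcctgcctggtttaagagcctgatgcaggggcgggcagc
Gbp2: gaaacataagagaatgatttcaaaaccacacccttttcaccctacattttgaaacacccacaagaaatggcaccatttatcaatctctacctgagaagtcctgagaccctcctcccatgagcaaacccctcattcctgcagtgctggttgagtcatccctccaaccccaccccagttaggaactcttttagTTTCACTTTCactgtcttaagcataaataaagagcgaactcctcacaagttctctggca
Irf1: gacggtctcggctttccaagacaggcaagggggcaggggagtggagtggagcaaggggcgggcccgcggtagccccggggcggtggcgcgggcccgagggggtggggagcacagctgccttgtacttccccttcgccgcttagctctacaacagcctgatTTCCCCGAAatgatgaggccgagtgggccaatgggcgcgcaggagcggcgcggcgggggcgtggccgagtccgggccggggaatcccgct

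MHC and homeostatic microglia genes held no DEGs and complement genes 1. H2-Aa, an MHC class II chain, was at 1179, 480, 563 and 819 CPM at 8 days and at 1734, 619 and 1248 CPM in D661, D667 and D845 and 70.7 CPM in D844 (Log2FC -0.25 ± 0.71, edgeR FDR = 0.878). C1qa, a subunit of the complement initiator C1q made by microglia, was at 285 to 566 CPM and then at 783, 345, 653 and 115 CPM (Log2FC 0.04 ± 0.40, edgeR FDR = 0.968). For both genes D661, D667 and D845 lay inside or above the 8-day range and D844 lay below it. Of 10 MHC class II and 18 MHC class I genes 0 were DEGs, with medians of -0.32 and -0.64. Omitting D844 brought the class II median to -0.10 and batch 1 alone gave 0.54. Of 17 complement genes 1 rose, against 2.36% of all genes, and 0 with the batch label. None fell, with a median Log2FC of -0.02 and of 0.25 in batch 1 alone. None of 11 homeostatic microglia genes was a DEG (median Log2FC 0.03).

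Spp1 and Apoe, genes of disease-associated microglia, rose. Spp1 (ENSMUSG00000029304), osteopontin, was at 6.9, 5.25, 8.47 and 4.43 CPM at 8 days and at 47.4, 47.2, 73.2 and 10.8 CPM in D661, D667, D845 and D844 (Log2FC 2.80 ± 0.53, a 6.96-fold rise, edgeR FDR = 0.01). All 4 mice exceeded all 8-day mice, D844 by the smallest margin, and rAAV-control mice of both times ranged from 4.43 to 15 CPM. Spp1 was the single DEG in batch 1 alone (Log2FC 2.92, edgeR FDR = 0.00988) and passed with the batch label (edgeR FDR = 0.016) and without D844 (Log2FC 3.29, edgeR FDR = 0.00725), but not without D845 (Log2FC 2.82, edgeR FDR = 0.112). Apoe (ENSMUSG00000002985), the lipid carrier of astrocytes and activated microglia, was at 1966, 1799, 2007 and 2147 CPM and then at 4945, 3437, 6032 and 2331 CPM (Log2FC 1.12 ± 0.20, edgeR FDR = 0.00892). It too was separate between the groups, with a Log2FC of 1.07 in batch 1 alone (edgeR FDR = 0.365).

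The other genes of the disease-associated microglia list were not DEGs. Of 22 members, 2 rose, against 2.36% of all genes, 0 fell, and 18 had a Log2FC above 0, with a median of 0.34 and of 0.55 in batch 1 alone. Clec7a, a pattern receptor, was at 67.3, 20.3, 28.4 and 59.2 CPM at 8 days and at 138, 71.7, 112 and 6.48 CPM at 28 days (Log2FC 0.63 ± 0.56, edgeR FDR = 0.553). Itgax, the integrin CD11c, was at 22.03 to 57.5 CPM and then at 102, 48.4, 99.4 and 5.0 CPM (Log2FC 0.42 ± 0.58, edgeR FDR = 0.723). In both genes D844 was below every 8-day mouse. Adh1, an alcohol dehydrogenase that acts on retinol, rose from 0.125 to 0.677 CPM to 2.17, 1.83, 9.15 and 1.38 CPM (Log2FC 3.65 ± 0.61, edgeR FDR = 0.00485).

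Of 18 myelin and oligodendrocyte genes 4 rose, against 2.36% of all genes. Ugt8a, which makes the myelin lipid galactosylceramide, was at 52.8, 32.1, 52.5 and 33.2 CPM at 8 days and at 79.8, 63.6, 76.0 and 54.8 CPM in D661, D667, D845 and D844 (Log2FC 0.68 ± 0.17, edgeR FDR = 0.0269). Its groups were separate. Ermn and Enpp6, whose groups overlapped, were DEGs as well (Log2FC 0.72 ± 0.19 and 0.82 ± 0.23, edgeR FDR = 0.033 and 0.0452). None of the 18 fell, and 17 of 18 were above 0, with a median Log2FC of 0.54 against -0.02 for all genes and of 0.72 in batch 1 alone. Without D844 0 of the 18 were DEGs at a median of 0.56, and with the batch label 0 at a median of 0.73. In rAAV-control mice the list had a median of 0.38, and the change in Ugt8a was not shown to differ between the vectors (rAAV-OVA minus rAAV-control 0.38 ± 0.26 on the log2 scale, edgeR FDR = 0.482).

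With the batch label as the covariate, 18 genes rose. They were Spp1, Apoe, Adh1, Odad4, Serpinb1a, Prima1, P2rx6, A330015K06Rik, B3gnt9, Fam222a, Vat1, Myo1d, Pls1, Unc5b, Il33, Lpar1, Gab1 and Efhd1. Apart from Spp1, Apoe and Adh1 they were chosen after their values were seen. Il33, an alarmin stored in nuclei of oligodendrocytes and astrocytes, was at 58.6, 47.2, 71.2 and 58.2 CPM at 8 days and at 131, 103, 152 and 74.1 CPM at 28 days (Log2FC 0.93 ± 0.19, edgeR FDR = 0.0137). Pls1, an actin-bundling plastin, was at 6.96 to 11.4 CPM and then at 19.6, 15.2, 19.9 and 13.9 CPM (Log2FC 0.98 ± 0.15, edgeR FDR = 0.00485). Unc5b, a netrin receptor, was at 14.7 to 27.1 CPM and then at 47.7, 30.6, 44.9 and 44.5 CPM (Log2FC 0.97 ± 0.16, edgeR FDR = 0.00485). All 3 were separate between the groups with D844 included. Unc5b levels of rAAV-control mice at 8 and 28 days, 32.7 to 43.7 CPM, were above all 4 rAAV-OVA mice of 8 days.

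**Figure D4:**
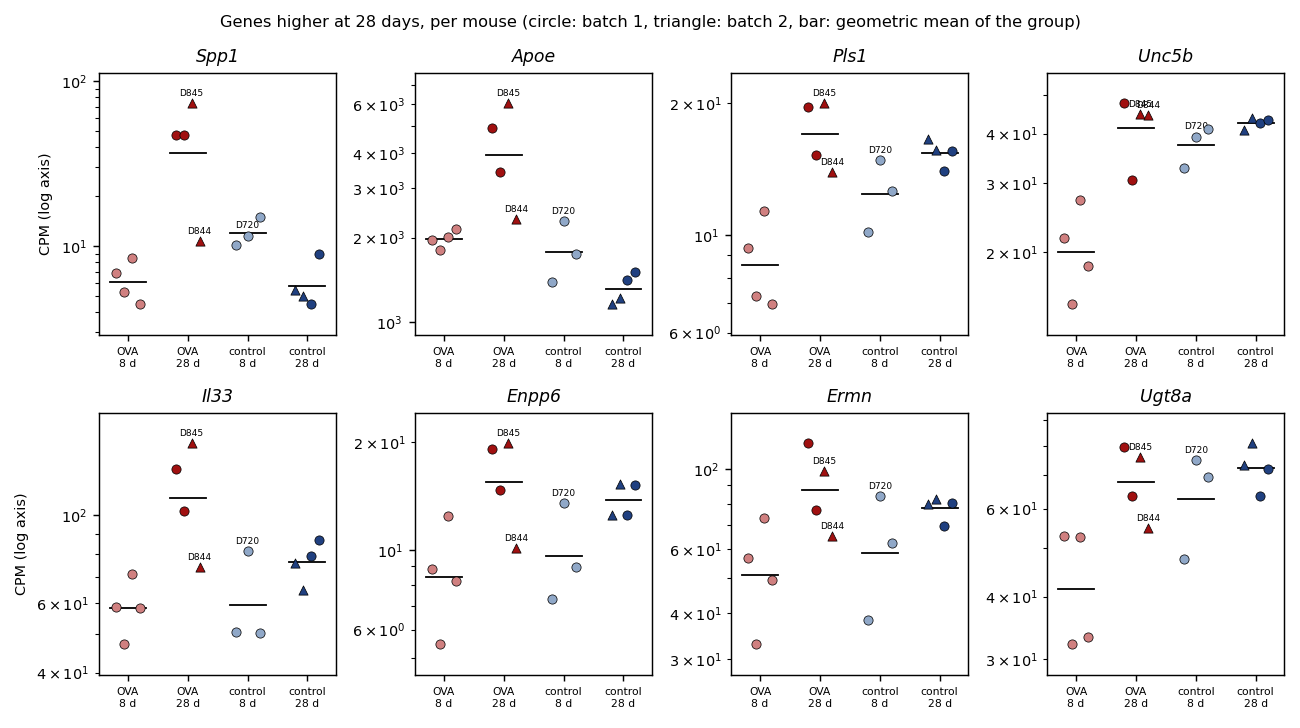
CPM (log axis) of 8 genes that were DEGs with a higher level at 28 days, for each mouse of 4 groups, with circles for batch 1, triangles for batch 2 and a bar at the geometric mean. Spp1 and Apoe are raised in D661, D667 and D845 and least in D844, whereas the myelin genes Enpp6, Ermn and Ugt8a have a Log2FC above 0 in rAAV-control mice as well (0.71, 0.56 and 0.30).

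The 10 largest increases with separate groups ran from a Log2FC of 3.62 to 4.43. They were Glycam1, Clic6, Otx2, Krt18, Krt8, Ecrg4, 1700012B09Rik, Adh1, Col8a2 and Dnai3, and the highest value at 28 days was in D845 or D844. Clic6, a chloride channel of choroid plexus epithelium, was at 3.99, 1.87, 3.25 and 3.4 CPM at 8 days and at 7.8 and 9.83 CPM in D661 and D667, 115 CPM in D845 and 34.3 CPM in D844 (Log2FC 4.16 ± 1.17, edgeR FDR = 0.0426). Without D845, in a fit with surrogate variables estimated anew, Log2FC was 0.64 for Clic6 and 0.56 for Otx2, and neither passed. The rAAV-control values of Clic6 reached 38.8 CPM at 8 days and 81.2 CPM at 28 days. Of the 12 choroid plexus genes 2 rose, Clic6 and Otx2, against 2.36% of all genes. Without D844 and with the batch label 0 passed. In the list 12 of 12 had a Log2FC above 0, with a median of 3.93, of 2.18 without D844, of 3.65 with the batch label, of 1.19 in batch 1 alone and of 2.94 in rAAV-control mice. The part of choroid plexus tissue in these results was not tested.

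Genes of motile cilia were also DEGs, with another order of mice and a rAAV-control median of 0.34 for the ependymal list. The summed list was at 38.0 to 71.7 CPM in rAAV-control mice of 8 days, above the 13.1 to 33.6 CPM of rAAV-OVA mice of 8 days. The rAAV-control mice of 28 days spanned 24.2 to 98.7 CPM, a range that holds D661 (70.3 CPM) and D667 (51.1 CPM). Foxj1, the transcription factor that switches on motile cilia, was at 11.6, 5.21, 12.9 and 10.03 CPM at 8 days and at 28.5, 17.9, 52.2 and 65.5 CPM in D661, D667, D845 and D844 (Log2FC 2.07 ± 0.44, edgeR FDR = 0.0143). Here D844 was the highest, and the groups did not overlap. All 16 genes of the ependymal list, chosen after values were seen, were DEGs with a median Log2FC of 2.68, and of 1.20 in batch 1 alone. Without D844 0 of the 16 were DEGs (median 1.38), and with the batch label 0 (median 2.37). Of 69 genes whose symbols begin with Cfap, Dnah, Dnai, Rsph, Tekt, Odad or Drc, 31 rose (44.9%) and 0 fell, against 2.36% of all genes. The median Log2FC of the 69 was 1.20, and 0.29 in batch 1 alone. In each of the 31 the mean of D845 and D844 exceeded that of D661 and D667.

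In further genes that rose, 1 mouse of batch 2 stood far above the others. Six3, a homeobox gene of striatal and septal neurons, was at 46.9 CPM in D844, at 4.01 CPM in D845 and at 0.735 CPM or less in the other 6 mice (Log2FC 5.48 ± 1.51, edgeR FDR = 0.0404), with overlapping groups. Drd2, the dopamine D2 receptor, was at 99.9 CPM in D844 and at 1.144 to 5.17 CPM in the other 7 (Log2FC 2.78 ± 0.79, edgeR FDR = 0.0448). Without D844 neither passed, and Log2FC was 1.97 for Six3 and 0.88 for Drd2. With D845 left out and D844 kept, Log2FC was 0.585 for Six3 and 0.045 for Drd2. The surrogate variables were estimated anew in that fit, so these values do not give the part of D845 alone. Vwf, the clotting factor of endothelium, was at 303 CPM in D845 and at 36.8, 33.3 and 28.8 CPM in D661, D667 and D844, against 17.7 to 26.1 CPM at 8 days (Log2FC 2.16 ± 0.55, edgeR FDR = 0.0305). Glycam1, a mucin-like ligand of L-selectin, showed 79.7 CPM in D845, 3.36, 7.43 and 1.62 CPM in D661, D667 and D844 and 0.71 to 1.22 CPM at 8 days (Log2FC 4.43 ± 0.87, edgeR FDR = 0.0104). Of 25 collagen and matrix genes 5 rose, against 2.36% of all genes. Their list had a median Log2FC of 0.81, of 0.06 in batch 1 alone and of 0.69 with the batch label, where 0 were DEGs. Col1a2, a fibrillar collagen chain, had a Log2FC of 2.03 ± 0.59 (edgeR FDR = 0.048) with 227 CPM in D845 and 10.03 to 29.4 CPM in the other 7 mice. In batch 1 alone its sign turned (-0.09).

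Of 19 cholesterol synthesis genes 1 fell, against 0.498% of all genes, 0 without D844 (list median -0.41) and 0 with the batch label (-0.33). All 19 of 19 had a Log2FC below 0 (median -0.39, and -0.38 in batch 1 alone), and for 10 of them every 28-day mouse lay below every 8-day mouse, against 2.3% of all genes. Sqle, squalene epoxidase, went from 45.4, 49.2, 44.1 and 38.9 CPM to 27.7, 36.5, 25.9 and 37.4 CPM (Log2FC -0.48 ± 0.13, edgeR FDR = 0.0402). Fdft1, squalene synthase, went from 58.05, 65.8, 62.7 and 53.3 CPM to 42.9, 47.2, 32.6 and 47.3 CPM (Log2FC -0.46 ± 0.11, edgeR FDR = 0.027). Both had separate groups and passed the FDR but not the fold limit. In rAAV-control mice the list had a median of -0.15.

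In 3 neuronal lists 1 gene each fell, where 0.498% of all genes did, and 0 without D844 and 0 with the batch label. Among 12 CA1 genes Lefty1 fell, among 10 CA3 and mossy cell genes Iyd, and among 17 interneuron genes Cck (Log2FC -1.09 ± 0.28, -1.02 ± 0.25 and -0.76 ± 0.20, edgeR FDR = 0.029, 0.0266 and 0.0326). Cck, the neuropeptide cholecystokinin, was at 164 to 180 CPM at 8 days and at 128, 157, 86.2 and 39.7 CPM in D661, D667, D845 and D844. The groups were separate, and both batch 2 mice were the lowest. The interneuron list had 10 of 17 genes above 0 (median Log2FC 0.02) and the CA3 list 4 of 10 (median -0.28), while the CA1 list had 1 of 12 (median -0.56). The summed CA1 list was at 1182 to 1263 CPM at 8 days and at 909, 1285, 761 and 598 CPM at 28 days, and rAAV-control mice lay between 1322 and 1731 CPM. None of 14 dentate granule genes, 23 receptor subunit genes or 18 vesicle release genes was a DEG, although the vesicle genes were below 0 in 18 of 18 (median -0.34, and -0.13 in batch 1 alone). Car7, a carbonic anhydrase of neurons named after its values were seen, went from 9.17, 7.12, 11.3 and 8.91 CPM to 5.21, 5.81, 3.94 and 3.59 CPM (Log2FC -1.01 ± 0.16, edgeR FDR = 0.00485) and passed with the batch label (edgeR FDR = 0.0316).

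**Figure D5:**
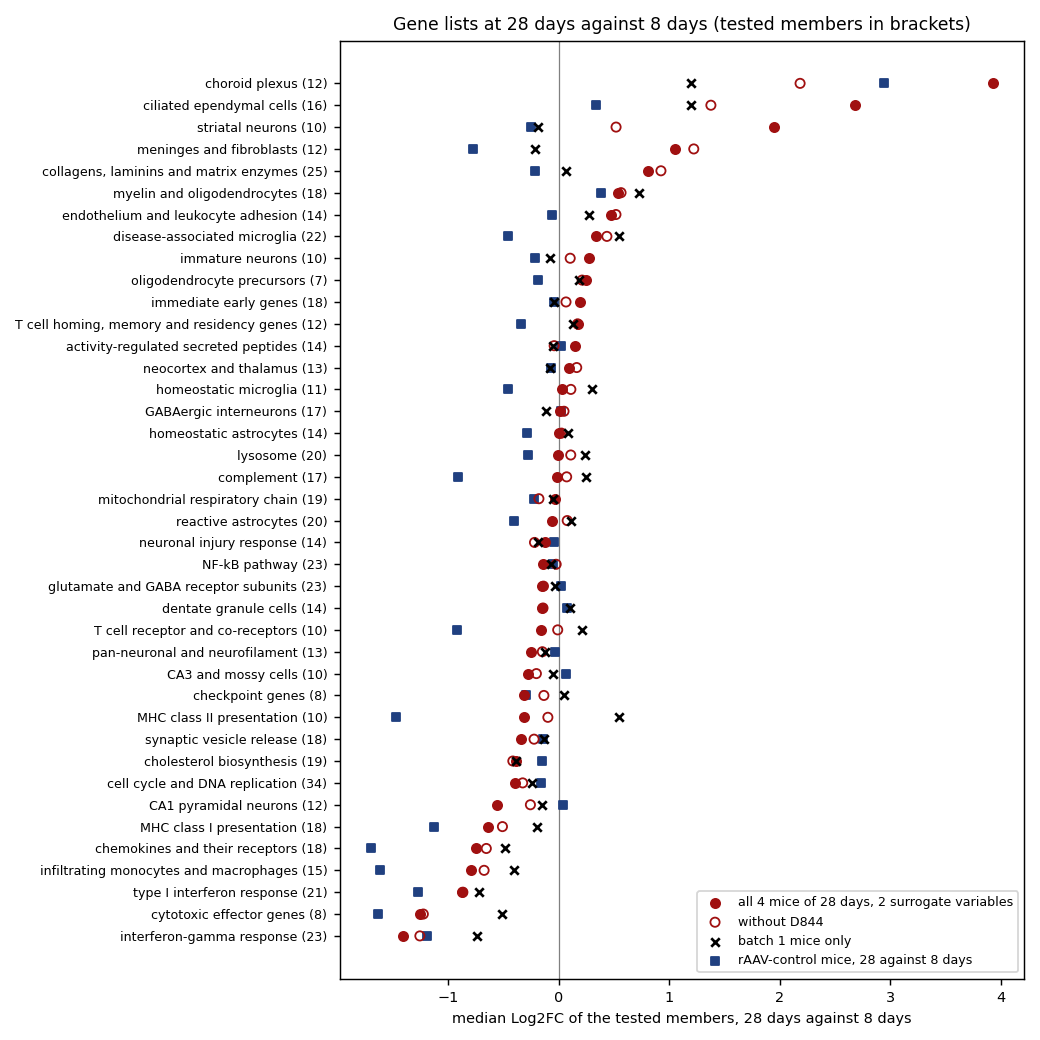
Median Log2FC at 28 against 8 days (x axis) of gene lists with at least 7 measured members (y axis, number in brackets), for rAAV-OVA with all mice, without D844 and with batch 1 mice alone, and for rAAV-control. For rAAV-OVA with all mice, interferon-gamma genes are lowest (-1.41) and choroid plexus genes highest (3.93), while the rAAV-control medians of chemokine, cytotoxic, monocyte and MHC class II genes lie lower (-1.70, -1.63, -1.62 and -1.47). In each of these rAAV-control lists the raised mouse D720 had the highest summed level at 8 days. The MHC class II median is -0.32 with all mice and 0.54 in batch 1.

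Between 8 and 28 days the rAAV-control mice differed in 1 gene (0.00639%), 6030443J06Rik, and 1583 genes had an unadjusted p below 0.05. The change in rAAV-OVA minus that in rAAV-control gave 0 DEGs in edgeR (0%), where the smallest FDR was 0.0615 and 2530 genes had p below 0.05 before adjustment. DESeq2 called 158 genes for this difference, and 40 with shrinkage by ashr. Spp1 rose by 3.75 ± 0.79 more in rAAV-OVA than in rAAV-control on the log2 scale (edgeR FDR = 0.0932), Apoe by 1.51 ± 0.31 (edgeR FDR = 0.0932) and Adh1 by 3.99 ± 0.92 (edgeR FDR = 0.0938). For Ccl2, Ly6c2, Il1b and Gzmb the difference between the vectors was -1.53 ± 1.47, -0.61 ± 1.34, -1.11 ± 1.49 and -0.88 ± 1.19 (edgeR FDR = 0.639, 0.859, 0.754 and 0.758). These genes were low in 2 of the 3 rAAV-control mice of 8 days and raised in D720, at 13.4 CPM of Ccl2 and 21.6 CPM of Ly6c2.

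In the remaining lists, read against 2.36% of all genes that rose, some members passed. Among 14 endothelial and adhesion genes Vwf and Cdh5 rose, among 10 immature neuron genes Draxin, among 25 matrix genes Col1a2, Col6a1, Col6a2, Timp2 and Adamts4, and among 3 B cell and plasma cell genes Ebf1. No member of these 4 lists fell. Without D844 3 of the matrix genes and 0 of the others passed, and with the batch label 0 in all 4 lists. None of 34 cell cycle genes passed, with 30 below 0 and a median Log2FC of -0.40. None of 14 homeostatic astrocyte, 7 oligodendrocyte precursor, 13 pan-neuronal, 18 immediate early, 14 activity-regulated peptide, 14 neuronal injury, 20 lysosome or 19 respiratory chain genes was a DEG, with medians between -0.25 and 0.25. None of 12 meningeal, 4 red blood cell, 13 neocortex and thalamus or 2 NK cell and neutrophil genes was a DEG. The meningeal list had a median of 1.05 with all mice and of -0.21 in batch 1 alone.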

How the data were processed

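Bulk RNA-seq of the left hippocampus was analysed from gene tables of 31 mice in 8 groups. The authors trimmed the reads with fastp, quantified them with Salmon 1.8.0 against GENCODE M29, summed them to genes with tximeta and dropped genes that did not reach 15 counts in 15 mice. The deposited values are estimated counts, already whole numbers, for 15648 genes, of which 824 have no symbol. The 2 deposited tables differ in 0 values. Mice were grouped by the treatment and time point labels. That each library is a separate mouse comes from the titles, and no replicate pair of the 4 groups of 8 and 28 days agreed within sampling noise.

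Counts were tested here with edgeR 4.0.16 (TMM, robust quasi-likelihood F-test, R 4.3.3) over 8 groups with 2 surrogate variables from sva 3.50.0, and p-values were adjusted by Benjamini-Hochberg over all 15648 genes. DEGs had FDR of at most 0.05 and absolute Log2FC of at least 0.66. The SE was derived from the test, as the absolute Log2FC divided by the square root of the F statistic. The batch 1 comparison used no covariate. Where a fit with surrogate variables left out mice, these variables were estimated anew from the mice that remained. The interaction was the change in rAAV-OVA minus that in rAAV-control. Alternatives used DESeq2 1.42.0, ashr 2.2.63 and limma 3.58.1. The procedure was tested on simulated data. A sum of CPM over a list weights its most abundant members.

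Named genes were the 10 DEGs with the highest and the 10 with the lowest Log2FC that had a symbol, a mean of at least 1 CPM and groups that did not overlap, or were members of gene lists. The members and lists were chosen with earlier results of these data known. Promoter windows came from RefSeq on GRCm38.p6, which is not the build of the counts. Coordinates are given for these windows only, and the windows of all genes in that table served as the comparison. Proteins were not used here. Some results are not reported here.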

Additional observations from a re-analysis of the deposited data

Results flagged for a closer look

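In groups of 4 mice, 12 of 126 sets of values examined held 1 mouse far from the other 3. At 28 days D845 stood apart in 7 of them, with 79.7 CPM of Glycam1, 77.3 CPM of Ecrg4 and 9.15 CPM of Adh1, and with summed levels of 2184 CPM for collagens, laminins and matrix enzymes, 8306 CPM for choroid plexus, 2033 CPM for meninges and fibroblasts and 367 CPM for red blood cells. D844 stood apart in 4, with summed levels of 1577 CPM for immediate early genes, 1804 CPM for activity-regulated secreted peptides, 465 CPM for neuronal injury genes and 2063 CPM for striatal neurons. At 8 days D700 stood apart in the T cell homing, memory and residency list with 451 CPM. The sets share libraries, and some were chosen by their values, such as genes with the largest Log2FC and the striatal list. The count is therefore not set against a chance rate.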

How the results depend on the processing

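Calls are given as the percent of genes tested. In rAAV-OVA the 2.86% of DEGs became 4.51% without the fold limit, 2.16% (297 genes) with 15 counts in every mouse and 4.51% in the DESeq2 Wald test. They became 0.141% (22 genes) with the batch label, 0% with the batch label and 2 surrogate variables (678 genes at an unadjusted p under 0.05), 0% with only the 2 groups compared (1393 genes) and 0.00639% (1 gene) with the 16 rAAV-OVA mice and the batch label. Batch 1 alone gave 0.00639% without covariates and 0.00639% with 2 surrogate variables. Of alternatives chosen after seeing the data, the batch label without D844 gave 0.575% (90 genes), and 2 surrogate variables without D844 and D845 gave 0% (947 genes at p under 0.05). Leaving out 1 mouse, with the surrogate variables estimated anew, gave 0% to 7.31%, the 0% without D845 (744 genes at p under 0.05) and the 7.31% without D667. The cause was not tested. DESeq2 size factors, no covariates, ashr and limma voom gave 2.19% to 2.8%.

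The 0.00639% of rAAV-control (1 gene) became 0% with 15 counts in every mouse, no covariates, the batch label with or without surrogate variables, the DESeq2 Wald test, ashr, limma voom and only its own groups, and was 0% to 0% after leaving out any 1 mouse. The 0% of the difference between the vectors became 0.0581% with 15 counts in every mouse, 1.01% in the DESeq2 Wald test and 0.256% with ashr, and 0% to 1.87% after leaving out 1 mouse, with 1.87% without D667 and 0.575% without the rAAV-control mouse D696. The 0.00639% of batch 1 became 0% with only its 6 rAAV-OVA mice (734 genes at p under 0.05) and 0% to 0.0128% after leaving out 1 mouse.

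Signs were followed for 63 DEGs, those named by the fold rule or as list members. Of these 56 kept their sign throughout, and 0 passed in every setting. List members that were not DEGs were left out, and some turned, such as Cd8a, from -0.485 to 0.204 in batch 1 alone. With the batch label and 2 surrogate variables Log2FC was -0.219 for Clic6, -0.291 for Otx2, -0.053 for Dynlrb2, -0.085 for Hydin, -0.158 for Cfap43 and -0.333 for Six3. Col1a2 was at -0.087 in batch 1, -0.166 there with 2 surrogate variables and -0.048 without D844 and D845, and leaving out 1 mouse gave -0.182 (without D845) to 2.299. No paired analysis was possible because the labels give no replicate numbers and each mouse was sampled once. All 8-day rAAV-OVA mice were of batch 1, so a batch effect could be fitted only from the groups of 2 and 28 days, which hold both batches.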
